A study of Homo sapiens with 6 samples.

Results

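The TNF superfamily is made of trimeric ligands, most of them anchored in the cell membrane, and of the receptors they bind. The 10 genes described here are 2 ligands, TNFSF15 and TNFSF10, and 8 receptors, TNFRSF9, TNFRSF1A, TNFRSF1B, TNFRSF10A, TNFRSF10B, TNFRSF11B, TNFRSF12A and TNFRSF21, found by symbol among the 29710 genes of the deposited count table. They were chosen by symbol with knowledge of their CPM and log2 fold change in this comparison, so their fold changes and p-values are given as a description and support nothing. The libraries came from the triple-negative breast cancer line MDA-MB-231, in cells that overexpressed SRPK2-FLAG, a tagged kinase of splicing factors (3 biological replicates), or carried an empty vector (3 biological replicates). All 6 libraries share the line. The labels do not say whether the cells were clones or pools, or how long SRPK2 was expressed, and the study's question was which transcripts differ when SRPK2 is raised.

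TNFRSF21 carries a death domain. So do TNFRSF1A, TNFRSF10A and TNFRSF10B, which can recruit TRADD or FADD and, through caspase-8, start apoptosis. Receptors without a death domain (TNFRSF9, TNFRSF1B and TNFRSF12A) bind TRAF adaptors and switch on NF-kB, whose targets include BIRC3, TRAF1 and TNFAIP3. TNFRSF11B is secreted and holds ligands away from signalling receptors, and MDA-MB-231 is widely used to study killing by TNFSF10, also called TRAIL.

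Upstream sequences are shown for the 3 genes with the smallest p-values among the 10, so that motifs of interferon, NF-kB and AP-1 signalling can be read in place. They come from the RefSeq promoter table (GRCh38.p14), which matched 6 of the 10 genes, and each was read in the direction of transcription over the 250 bases before the RefSeq start. Only the stretch outside GENCODE 29 exons is printed, and capitals mark a motif.
TNFSF15 (chr9:114792531-114792780, minus strand): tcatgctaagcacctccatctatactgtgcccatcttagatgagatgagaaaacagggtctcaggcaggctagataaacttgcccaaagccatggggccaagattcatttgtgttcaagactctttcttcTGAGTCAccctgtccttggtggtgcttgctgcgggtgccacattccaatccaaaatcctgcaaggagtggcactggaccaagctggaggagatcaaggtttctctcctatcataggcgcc
TNFSF10 (chr3:172523508-172523680, minus strand): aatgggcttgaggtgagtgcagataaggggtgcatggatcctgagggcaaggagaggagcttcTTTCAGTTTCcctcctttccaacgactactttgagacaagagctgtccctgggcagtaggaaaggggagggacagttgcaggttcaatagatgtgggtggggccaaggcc
TNFRSF9 (chr1:7940934-7941089, minus strand): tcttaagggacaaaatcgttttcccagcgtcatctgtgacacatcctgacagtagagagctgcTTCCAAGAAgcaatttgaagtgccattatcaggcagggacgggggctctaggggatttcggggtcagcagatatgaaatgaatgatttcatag
Of 35116 promoters in the table, 3.02% hold the core of the interferon-stimulated response element searched here (TTTC, 2 free bases, TTTC), 5.67% a kB motif (GGG, 3 free bases, TTCC), 6.57% a GAS motif (TTCNNNGAA) and 6.57% an AP-1 motif (TGANTCA), on either strand over the same 250 bases. Among the 16166 promoters of genes tested below, the shares were 2.56%, 6.57%, 5.53% and 4.76% in the same order. The capitals in TNFSF15 are an AP-1 motif at -120 to -114, those in TNFSF10 an interferon-response core at -187 to -178, and those in TNFRSF9 a GAS motif at -187 to -179. TNFRSF9 also held 2 overlapping kB matches, 1 on each strand (-74 to -65 and -73 to -64), and an AP-1 motif (-44 to -38), in the exonic part not printed. TNFRSF1B had an interferon-response core at -10 to -1, and TNFRSF1A and TNFRSF21 had 0 of these motifs. A match is a description of letters, and the RefSeq start of TNFSF15 lies 13596 bases inside the 5′ end of its GENCODE 29 gene and that of TNFRSF9 2326 bases inside.

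The libraries held 31140537 to 36908878 reads with SRPK2 and 33590410 to 36225361 with the empty vector. SRPK2 itself had 213, 248 and 294 CPM (read counts scaled to library size by TMM) in SRPK2 libraries and 37.8, 36.7 and 41.1 CPM with the empty vector, and its groups did not overlap. The line's expected genes VIM, CD44, EGFR, CAV1, AXL, KRT18 and KRT8 summed to between 7318 and 7821 CPM with SRPK2 and between 7596 and 7744 CPM with the empty vector. Of the 5 genes expected to be low, no library held more than 2 reads of ESR1 or 4 of PGR. CDH1 averaged 2.63 CPM with SRPK2 and 2.61 CPM with the empty vector, with overlapping groups. EPCAM was present at 14.4 CPM with SRPK2 and 14.7 CPM with the empty vector, and ERBB2 at 51.4 and 47.1 CPM, with groups that did not overlap (log2 fold change 0.13, SE 0.05, edgeR adjusted p = 0.234). Of 10 T and NK cell markers 6 were in the table, summing to 3.26 to 4.03 CPM with SRPK2 and 3.45 to 3.72 CPM with the empty vector, nearly all of it CD8A. The 7 other leukocyte markers in the table summed to 8.65 to 10.01 CPM with SRPK2 and 9.67 to 10.7 CPM with the empty vector. Most of it was CD14 (mean 5.57 CPM with SRPK2 and 5.94 CPM with the empty vector) and CSF1R (3.05 and 3.51 CPM). PTPRC, the common leukocyte antigen, averaged 0.19 and 0.17 CPM in the same groups. The 5 endothelial markers in the table summed to 6.55 to 8.27 CPM with SRPK2 and 6.77 to 7.98 CPM with the empty vector. Most of it was PECAM1 (mean 3.34 CPM with SRPK2 and 3.72 CPM with the empty vector) and KDR (3.91 and 3.33 CPM).

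Measured per length, TNFRSF12A and TNFRSF21 were the most abundant of the 10 transcripts and TNFRSF9 and TNFSF15 the least. In FPKM, a read count scaled to gene length and library size, TNFRSF12A averaged 88.6 ± 6.81 with SRPK2 and 100.1 ± 5.84 with the empty vector (SD, n = 3 each). TNFRSF21 averaged 68.8 ± 3.58 and 65.9 ± 3.59 FPKM in SRPK2 and empty-vector libraries, followed by TNFSF10 at 33.6 ± 0.83 and 27.9 ± 1.14 FPKM. TNFRSF1A (25.9 and 23.9 FPKM), TNFRSF10B (23.7 and 21.8 FPKM) and TNFRSF10A (11.9 and 11.8 FPKM) came next, each pair again giving the SRPK2 mean and then the empty-vector mean. TNFRSF1B had 2.52 and 2.12 FPKM, TNFRSF11B 1.45 and 1.53 FPKM, TNFSF15 0.82 and 0.54 FPKM and TNFRSF9 0.41 and 0.23 FPKM on the same reading. The order of the 10 genes by mean was the same in both groups. Neighbours in that order did not overlap between libraries, apart from TNFRSF1A and TNFRSF10B in the SRPK2 libraries. Against all tested genes, TNFRSF12A stood at percentile 97.9 of empty-vector FPKM, TNFSF10 at 90.5, TNFSF15 at 22.2 and TNFRSF9 at 11.8.

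**Figure D1:**
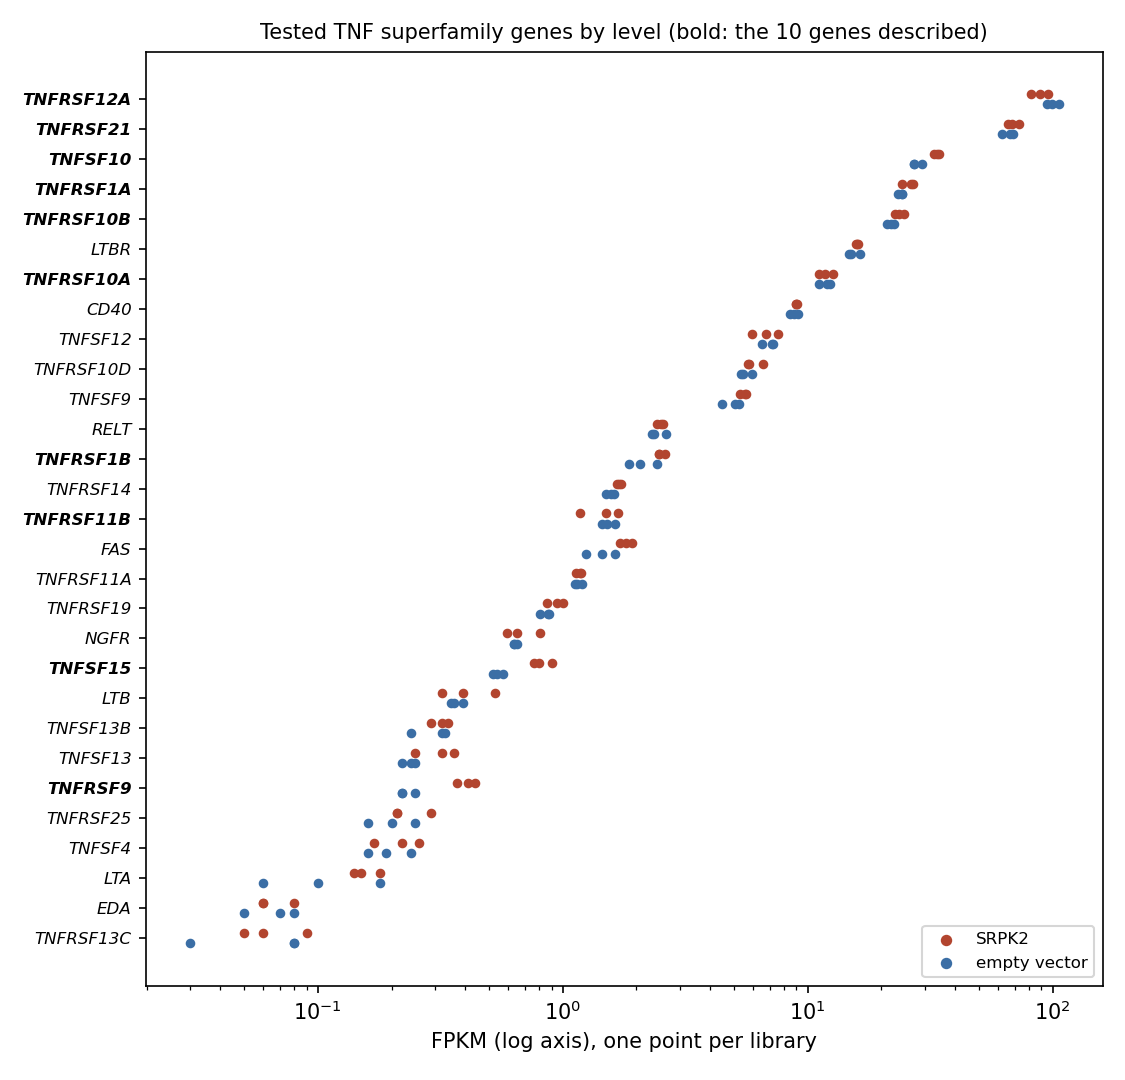
FPKM (log axis) of the 29 tested TNF superfamily genes, 1 point per library, with SRPK2 libraries above the empty-vector libraries of each gene and the 10 genes described in bold. TNFRSF12A lies near 100.1 FPKM with the empty vector, while TNFRSF9 lies near 0.23 FPKM there and 0.41 FPKM with SRPK2.

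Both ligands were higher in every SRPK2 library than in any empty-vector library, a pattern that 11.5% of all tested genes showed. Called below means an adjusted p under 0.05, which 0.381% of tested genes reached in the higher direction. TNFSF15, which binds the death-domain receptor TNFRSF25 and costimulates T cells, had 203, 241 and 284 reads with SRPK2 and 167, 150 and 178 with the empty vector. As levels these were 6.48, 6.89 and 7.41 CPM with SRPK2, against 4.75, 4.62 and 4.86 CPM with the empty vector. The groups did not overlap, and the gap between them was wider than the spread within either. In bulk cultures, more RNA per cell and more cells that express the gene cannot be told apart. The log2 fold change of TNFSF15, called the log2 value where shortened, was 0.55 (SE 0.10, 1.46-fold, edgeR quasi-likelihood test, adjusted p = 0.0280 over all tested genes). With limma on log2(FPKM + 1) it did not pass (adjusted p = 0.157). TNFSF15 (ENSG00000181634.8) occupies chr9:114784635-114806126, minus strand, in GRCh38.

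TNFSF10, whose product induces apoptosis through TNFRSF10A and TNFRSF10B, had 127, 125 and 126 CPM with SRPK2 and 105, 114 and 103 CPM with the empty vector. Its SRPK2 libraries lay close together and above every empty-vector library, while empty-vector replicate 2 stood above the other 2 of its group. The log2 fold change was 0.24 (SE 0.05, 1.18-fold), and with an edgeR adjusted p of 0.0858 the gene fell short of the threshold. It was the first of the 10 outside the threshold, and TNFRSF9 the last inside it. TNFSF10 did pass with library size alone as the scaling (edgeR adjusted p = 0.0319), with DESeq2 (adjusted p = 0.0355), with no filter on low counts (edgeR adjusted p = 0.00770), after a gene length correction (edgeR adjusted p = 0.0308) and without SRPK2 replicate 2 (edgeR adjusted p = 0.0255). TNFSF10 did not pass with RLE in place of TMM (edgeR adjusted p = 0.0931) or with a mean CPM of at least 5 (edgeR adjusted p = 0.0791). Limma on log2(FPKM + 1) did not call it either (adjusted p = 0.0745). Of the 6 fits that left out 1 library 1 passed, and the highest edgeR adjusted p was 0.322. Of the 11 other alternatives 6 passed. TNFSF10 (ENSG00000121858.11) occupies chr3:172505508-172523507, minus strand.

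Of the 8 receptors, TNFRSF9 alone passed the threshold. TNFRSF9, known as CD137 and as a costimulatory receptor of activated T cells, had 97, 91 and 105 reads with SRPK2 and 56, 59 and 56 with the empty vector. Its levels were 3.10, 2.60 and 2.74 CPM with SRPK2, against 1.59, 1.82 and 1.53 CPM with the empty vector. The lowest SRPK2 library stood above the highest empty-vector library, at read numbers that make each value imprecise. The log2 fold change of TNFRSF9 was 0.77 (SE 0.15, 1.71-fold, edgeR adjusted p = 0.0480), and DESeq2 gave an adjusted p of 0.0607. Of the T cell markers, CD3D averaged 0.04 CPM with SRPK2 and 0.08 CPM with the empty vector, CD4 0.01 and 0 CPM, and CD8A 3.49 and 3.42 CPM, with overlapping groups (log2 fold change 0.03, SE 0.12, edgeR adjusted p = 0.923). TNFRSF9 (ENSG00000049249.9) occupies chr1:7915894-7943165, minus strand.

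Of the 10 genes 2 were called higher and 0 lower, in a comparison where 0.381% of the 16515 tested genes were called higher and 0.0727% lower (0.454% in all). The groups did not overlap in the higher direction for 4 of the 10 (TNFSF15, TNFSF10, TNFRSF9 and TNFRSF10B), against 11.5% of all tested genes, and in the lower direction for 0, against 8.69% (20.1% of all in either direction). An edgeR unadjusted p under 0.05 was found for 5 of the 10, against 17.2% of all tested genes. Because the change itself entered the choice of the genes, nothing is read from these shares. The calls of TNFSF15 and TNFRSF9 changed when 1 library was left out: without SRPK2 replicate 1 or 3 or any 1 empty-vector library neither passed. TNFSF15 then had an edgeR adjusted p of 0.0591 and 0.105 without SRPK2 replicates 1 and 3 and of 0.153, 0.0788 and 0.0906 without empty-vector replicates 1, 2 and 3. TNFRSF9 had 0.186 and 0.103 without those SRPK2 libraries and 0.229, 0.0626 and 0.138 without those empty-vector libraries, as edgeR adjusted p. Without SRPK2 replicate 2 both passed (edgeR adjusted p = 0.0151 and 0.0157). Their log2 fold changes stayed between 0.49 and 0.59 for TNFSF15 and between 0.70 and 0.84 for TNFRSF9 whichever library was left out.

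**Figure D2:**
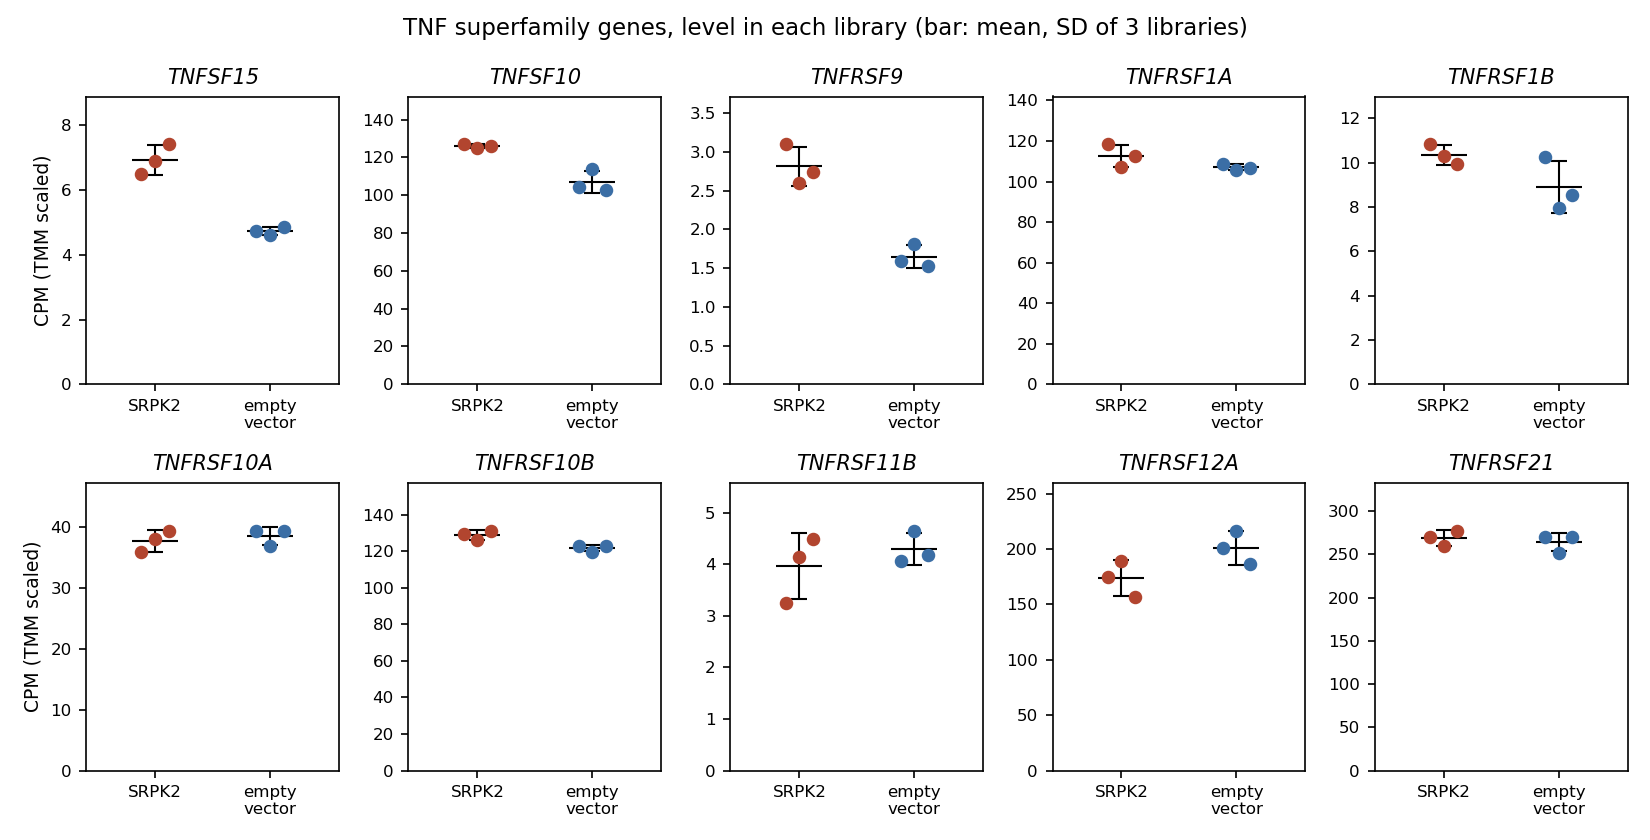
TMM-scaled CPM of the 10 genes, 1 point per library, SRPK2 left and empty vector right, with the mean and SD of 3 libraries as bars and each axis starting at 0. The points of TNFSF15, TNFSF10, TNFRSF9 and TNFRSF10B separate by group, and those of the other 6 genes overlap.

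The receptors of TNF did not pass the threshold. TNFRSF1A, the widely expressed death-domain receptor, had 118, 107 and 113 CPM with SRPK2 and 109, 106 and 107 CPM with the empty vector. SRPK2 replicate 2 lay inside the empty-vector range, and the log2 value, 0.08 (SE 0.05, edgeR adjusted p = 0.446), did not pass. TNFRSF1B, which lacks a death domain and signals through TRAF2, had 10.8, 10.3 and 9.94 CPM with SRPK2 and 10.2, 7.98 and 8.55 CPM with the empty vector. Empty-vector replicate 1 of TNFRSF1B reached the SRPK2 libraries, and the log2 fold change was 0.21 (SE 0.10, edgeR adjusted p = 0.285). It was 0.32 without that library and 0.14 without empty-vector replicate 2, and did not pass in either (edgeR adjusted p = 0.318 and 0.664). TNFRSF1B passed in 2 of the 11 alternatives that kept all 6 libraries. Its unadjusted p of 0.0470 was among those of the 17.2% of tested genes with an unadjusted p under 0.05. The ligand genes of these receptors were scarce: TNF had 1, 5 and 1 reads with SRPK2 and 2, 0 and 0 with the empty vector, and LTA 11, 10 and 10 reads with SRPK2 and 12, 4 and 7 with the empty vector.

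The TNFSF10 receptors did not pass either. TNFRSF10B, the death receptor also called DR5, had 130, 126 and 131 CPM with SRPK2 and 123, 120 and 123 CPM with the empty vector. Its groups did not overlap, but the difference was small, with a log2 value of 0.08 (SE 0.05, edgeR adjusted p = 0.379). TNFRSF10B passed in 1 of the 11 alternatives that kept all 6 libraries. TNFRSF10A, the related DR4, had 35.9, 38.1 and 39.4 CPM with SRPK2 and 39.4, 36.9 and 39.4 CPM with the empty vector, with a log2 value of -0.03 (SE 0.06, edgeR adjusted p = 0.825). With library size alone, and with limma on FPKM, the sign of the TNFRSF10A value turned. The counter's strand setting is not given, so reads of genes on the other strand may enter these values: AC100861.1, opposite TNFRSF10A, reached 283 reads, and RHOBTB2, opposite TNFRSF10B, 644, against at least 1124 and 3889 reads of the receptors. TNFRSF10D, a TNFSF10 receptor with a truncated death domain, had a log2 value of 0.07 (SE 0.07, edgeR adjusted p = 0.581), and the decoy TNFRSF10C never exceeded 13 reads. TNFRSF11B, osteoprotegerin, a secreted decoy of TNFSF11 that also binds TNFSF10, had 3.26, 4.15 and 4.49 CPM with SRPK2 and 4.07, 4.65 and 4.18 CPM with the empty vector. SRPK2 replicate 1 was the low library, and the log2 fold change of TNFRSF11B was -0.11 (SE 0.13, edgeR adjusted p = 0.697), and 0.00 without it.

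TNFRSF12A, the receptor of TNFSF12, had the lowest log2 fold change of the 10 genes, at -0.21 (SE 0.07, edgeR adjusted p = 0.203). Its levels were 175, 190 and 157 CPM with SRPK2, against 201, 217 and 186 CPM with the empty vector. SRPK2 replicate 2 lay above empty-vector replicate 3, so the groups overlapped, and without that SRPK2 library the value was -0.28 and passed (edgeR adjusted p = 0.0286). No other fit that left out 1 library called TNFRSF12A, while 3 of the 11 other alternatives did. Of the FPKM summed over the 10 genes, TNFRSF12A made up 34.4% with SRPK2 and 39.1% with the empty vector, and TNFSF10 made up 13.1% and 10.9% in the same groups. TNFRSF21, also called DR6, a death-domain receptor studied mostly in neurons, had 270, 260 and 277 CPM with SRPK2 and 270, 252 and 270 CPM with the empty vector. The TNFRSF21 groups overlapped, with a log2 value of 0.03 (SE 0.05, edgeR adjusted p = 0.828).

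**Figure D3:**
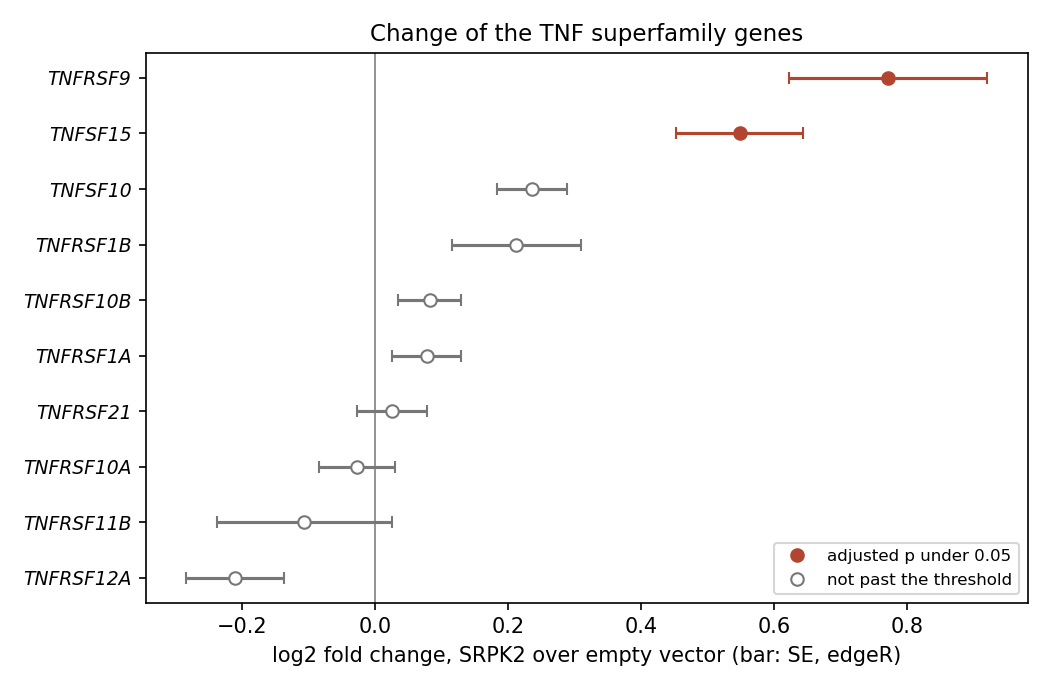
Log2 fold change of the 10 genes, SRPK2 over empty vector, with its SE (edgeR), filled where the adjusted p was under 0.05. TNFRSF9 (0.77) and TNFSF15 (0.55) lie apart from TNFSF10 (0.24), and TNFRSF12A (-0.21) is at the other end.

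The cognate partners were measured too. TNFSF9, the ligand of TNFRSF9, had 5.6, 5.54 and 5.29 FPKM with SRPK2 and 5.05, 4.46 and 5.26 FPKM with the empty vector (log2 fold change in CPM 0.12, SE 0.08, edgeR adjusted p = 0.483). TNFRSF25, the receptor of TNFSF15, was scarce too, at 0.21, 0.21 and 0.29 FPKM with SRPK2 and 0.16, 0.20 and 0.25 FPKM with the empty vector, and its groups overlapped. TNFSF12, the ligand of TNFRSF12A, had 7.58, 6.73 and 5.92 FPKM with SRPK2 and 7.16, 6.53 and 7.25 FPKM with the empty vector (log2 fold change -0.09, SE 0.09, edgeR adjusted p = 0.631). TNFRSF25, TNF, LTA and TNFRSF10C were chosen for the text after their values were seen.

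Across the rest of the superfamily 0 genes were called in edgeR, DESeq2 or limma on log2(FPKM + 1). Of 37 other ligands and receptors listed, 33 were in the table and 19 had enough reads to be tested in edgeR. DESeq2 tested 6 ligands and 10 receptors, and limma 2 ligands and 9 receptors. The 8 tested ligands had a median log2 fold change of 0.11, from -0.09 for TNFSF12 to 0.42 for LTA, with 0 at an unadjusted p under 0.05. The 11 tested receptors had a median of 0.05, from -0.02 for TNFRSF11A to 0.30 for FAS, with 1 at an unadjusted p under 0.05, beside a median of 0.00 over all tested genes. Of all tested genes 17.2% had such a p and 0.454% were called in edgeR. That receptor was FAS, the death receptor of FASLG, named after its values were seen, with 10.5, 11.8 and 10.8 CPM with SRPK2 and 7.77, 10.3 and 8.77 CPM with the empty vector (log2 fold change 0.30, SE 0.10, edgeR adjusted p = 0.197). The FAS groups did not overlap, but SRPK2 replicate 1 and empty-vector replicate 2 nearly met. The most abundant of these receptors, LTBR and CD40, had log2 fold changes of 0.01 and -0.01 (SE 0.05 and 0.06). The 14 superfamily genes not tested had at most 13 reads in any library.

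Among the listed genes that TNF receptors can induce through NF-kB 5 were called higher. Of the 20 tested TNF-induced targets 5 rose and 0 fell, 25% beside the 0.381% of all tested genes called higher, and the list's median log2 fold change was 0.12. The groups did not overlap in the higher direction for 10 of the 20, against 11.5% of all tested genes. An edgeR unadjusted p under 0.05 was also found for 10 of the 20, against 17.2% of all tested genes. This list and the others were drawn up with some of these results known, so nothing is read from their shares. TNFAIP3, the ubiquitin-editing inhibitor of NF-kB known as A20, had 24.2, 27.0 and 26.2 CPM with SRPK2 and 19.3, 18.6 and 20.3 CPM with the empty vector. Its log2 fold change was 0.41 (SE 0.06, edgeR adjusted p = 0.0139). TRAF1, an adaptor that binds TNFRSF9 and TNFRSF1B, had 39.9, 40.3 and 39.3 CPM with SRPK2 and 33.4, 30.3 and 31.1 CPM with the empty vector (log2 fold change 0.33, SE 0.06, edgeR adjusted p = 0.0218). BIRC3, a ubiquitin ligase of TNF receptor complexes, rose by 0.34 (SE 0.06, edgeR adjusted p = 0.0224). TNFAIP2 rose by 0.32 and SOD2, the mitochondrial superoxide dismutase, by 0.31 (edgeR adjusted p = 0.0383 and 0.0192).

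The other targets did not pass the threshold. CXCL8, CXCL1, CXCL2 and CXCL3, chemokines that TNF also induces, had log2 fold changes of -0.08, 0.07, -0.03 and 0.00, and IL6 one of 0.11 (edgeR adjusted p = 0.353), the chemokines being named after their values were seen. NFKBIA, the inhibitor that NF-kB induces first, had 0.16 (SE 0.05, edgeR adjusted p = 0.170), and the adhesion molecule gene ICAM1 0.27 (SE 0.06, edgeR adjusted p = 0.0717). ICAM1 did pass with DESeq2 (adjusted p = 0.0163). In edgeR it passed with library size alone (adjusted p = 0.0268), no filter on low counts (0.00112), the gene length correction (0.0328) and without SRPK2 replicate 2 (0.0180). ICAM1 missed the threshold in edgeR with RLE in place of TMM (adjusted p = 0.0811) and with a mean CPM of at least 5 (0.0751). Limma on log2(FPKM + 1) did not call it (adjusted p = 0.0932). Of the 6 fits that left out 1 library 1 passed, and the highest edgeR adjusted p was 0.281. Of the 11 other alternatives 6 passed. CCL20 had the highest log2 fold change of the list, 0.79 (SE 0.25, edgeR adjusted p = 0.184), at 28, 50 and 37 reads with SRPK2 and 24, 18 and 24 reads with the empty vector. Among these uncalled targets, NFKBIA, ICAM1, CCL20, NFKB2 and VCAM1 were higher with SRPK2 without overlap of the groups. Groups of IL6 and the CXCL genes overlapped, and 0 targets were lower without overlap. NFKB2 (log2 fold change 0.14, edgeR adjusted p = 0.205) and VCAM1 (0.23, edgeR adjusted p = 0.227) were also named after their values were seen. Among the calls, TNFAIP3 missed the threshold without empty-vector replicate 1 (edgeR adjusted p = 0.117). BIRC3 missed it without empty-vector replicate 1 or 2 or SRPK2 replicate 3 (0.181, 0.0710 and 0.0586 as edgeR adjusted p). TRAF1 and SOD2 missed it without SRPK2 replicate 1 or any 1 empty-vector library (edgeR adjusted p 0.0530 to 0.113 for TRAF1 and 0.0755 to 0.142 for SOD2), and TNFAIP2 passed only when SRPK2 replicate 2 was the one left out (0.102 to 0.208 otherwise). SOD2 also missed it after the gene length correction (log2 value 0.23, edgeR adjusted p = 0.0741). With limma on log2(FPKM + 1) BIRC3 and TNFAIP2 missed it (adjusted p = 0.0745 and 0.0953), and with no filter on low FPKM limma called none of the 5 (adjusted p 0.140 to 0.293).

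Of the 28 tested adaptors and complex members 2 rose and 0 fell, BIRC3 and TRAF1, which also stand on the target list, beside 0.381% of all tested genes called higher and 0.0727% lower, and the median was 0.03. An unadjusted p under 0.05 was found for 8 of the 28, against 17.2% of all tested genes. Groups were apart, without overlap, in the higher direction for 8 and in the lower direction for 2, against 11.5% and 8.69%. TNIP1, a partner of TNFAIP3 and the most abundant adaptor, had a log2 value of 0.20 (SE 0.05, edgeR adjusted p = 0.153). FADD, the adaptor of death receptors, had -0.11 (SE 0.05, edgeR adjusted p = 0.322) and BIRC2, the relative of BIRC3, -0.03 (SE 0.05). Of the 11 tested death effectors 0 were called in edgeR, DESeq2 or limma and 1 had an unadjusted p under 0.05, beside 0.454% and 17.2% of all tested genes in edgeR, with log2 fold changes between -0.14 for BAX, the gene with that p, and 0.11 for MLKL. Limma tested 10 of the death effectors. BAK1, which like BAX permeabilises mitochondria, had a log2 fold change of 0.03 (SE 0.05). Of 6 genes that release or limit the release of membrane ligands and receptors 0 were called by any of these tools and 2 had an unadjusted p under 0.05, beside the same 0.454% and 17.2%, with a median of 0.13. The groups did not overlap in the higher direction for 3 of the 6, against 11.5%. ADAM17, the main sheddase of TNF and its receptors, had 0.04 (SE 0.05), ADAM10 0.07 (SE 0.05), ERAP1 0.18 (SE 0.06) and TIMP3, an inhibitor of ADAM17, 0.20 (SE 0.05), with edgeR adjusted p of 0.723, 0.481, 0.196 and 0.145.

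**Figure D4:**
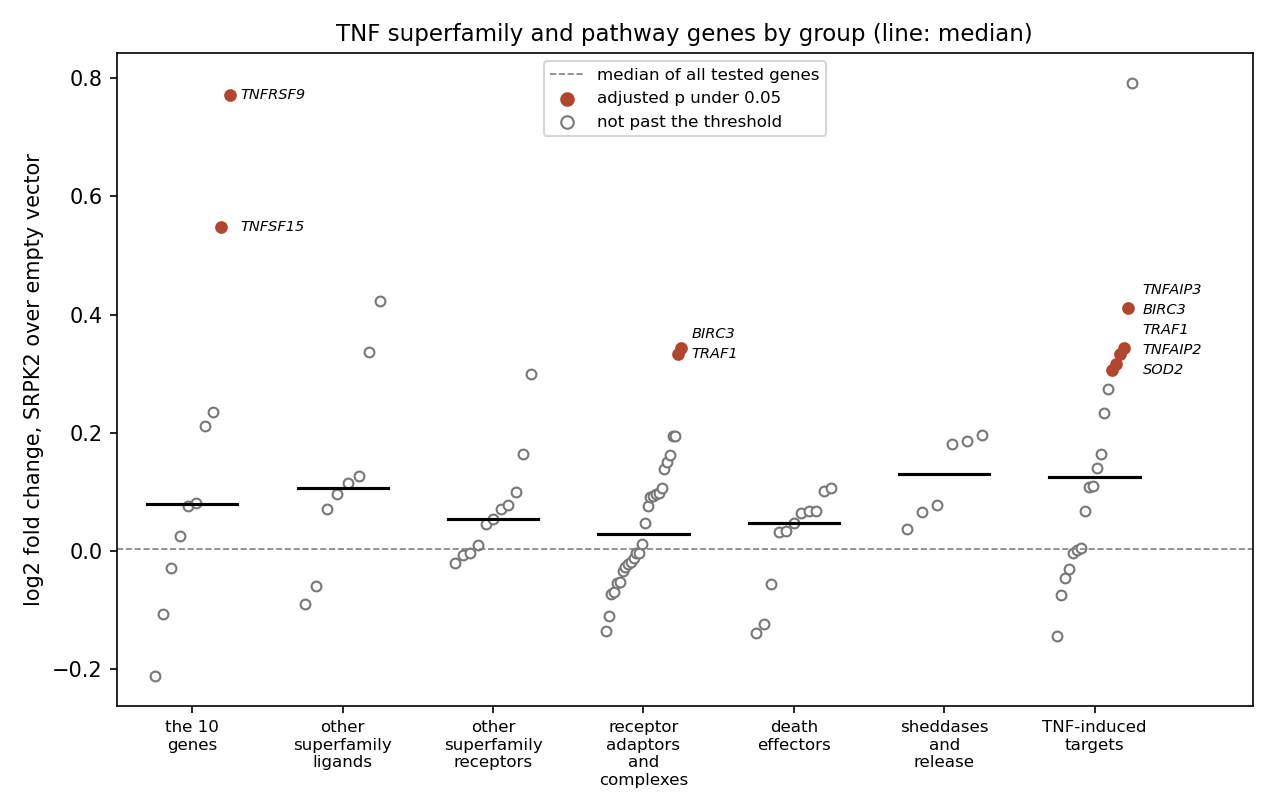
Log2 fold change, SRPK2 over empty vector, of each tested gene in the 10 genes described and the 6 lists, with list medians as lines and the median of all tested genes dashed. Filled points have an adjusted p under 0.05, and the 5 that are filled among TNF-induced targets lie between 0.31 and 0.41, below the open point of CCL20 at 0.79.

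The transcripts whose levels followed TNFSF15 and TNFRSF9 most closely were taken from 12650 genes, those whose log2 CPM averaged 1 or more. TNFSF15 correlated best over the 6 libraries with CTPS2, SRPK2, DDX58, SAMD9L and IL7R (Pearson r 0.993 to 0.994). DDX58 encodes the RNA sensor RIG-I, SAMD9L an interferon-induced antiviral factor and IL7R a cytokine receptor chain. TNFRSF9 correlated best with BTN3A1, OAS1, NMT1, TBC1D17 and GDPD5 (r 0.989 to 0.993), of which OAS1 is an interferon-induced antiviral enzyme. Functions are named here for only some of these correlates, and no shared theme is read from them. The 6 libraries form 2 groups, which all these genes share, and 467 genes had r over 0.9 with TNFSF15 and 254 with TNFRSF9. Of these 10 genes, CTPS2, NMT1, TBC1D17 and GDPD5 had an edgeR adjusted p between 0.113 and 0.486 and the other 6 were called higher.

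On their chromosomes several of the 10 lie near relatives. TNFRSF1A lies 32.9 kb from LTBR on chromosome 12, and TNFRSF1B 22.8 kb from TNFRSF8 on chromosome 1, as gaps between the GENCODE 29 genes. TNFRSF10A lies 26.4 kb from TNFRSF10D and TNFRSF10B 33.4 kb from TNFRSF10C on chromosome 8. TNFRSF8 and TNFRSF10C were too scarce to be tested, and none of the neighbours that were tested, LTBR and TNFRSF10D, was called.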

How the data were processed

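Counts came from 6 strand-specific RNA-seq libraries, grouped by their titles. Per the submitters' processing notes, bcl2fastq, FastQC and HISAT2 were used on GRCh38; which program counted reads, whether it used strand and which gene annotation it took is not given in the sources used here. The authors deposited raw counts per gene and, in a second table of 29256 genes, FPKM rounded to 2 decimals.

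The test was edgeR 4.0.16's quasi-likelihood test under R 4.3.3 (filterByExpr, TMM scaling, glmQLFit, glmQLFTest, group as the only term, two-sided) over 16515 genes, with Benjamini-Hochberg adjustment over all of them and a threshold of 0.05. SE was taken as the size of the log2 fold change divided by the root of its F statistic. DESeq2 1.42.0, limma 3.58.1 on log2 FPKM, other scalings and filters, a gene length correction (loess, span 0.3), the replicate number as a block and leaving out each library were alternatives. The code was tested on simulated data. Replicates of a group differed beyond sampling noise (chi-square 4.44 to 15.2 per degree of freedom). An exact permutation test of 3 against 3 cannot go below p = 0.1.

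The members and lists were chosen with earlier results of these data known. Named were the 10 members, SRPK2, called genes and the 4 most abundant of each pathway list, the 5 closest correlates of each called member and superfamily neighbours; RELT, TNFSF13B and LTB of these are given only in the closing section, and 2 are not reported here. Coordinates are from GENCODE 29, matched by gene identifier without version.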

Additional observations from a re-analysis of the deposited data

How the results depend on the processing

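SRPK2 stayed higher past the threshold in all 17 alternatives. Of the 10 members 2 were called higher and 0 lower, of all tested genes 63 and 12, and of the listed pathway genes 5 and 0. With library size alone TNFSF10 was called (0.27), and TNFRSF10A (0.0081), CD40 (0.031), RELT (0.032) and BIRC2 (0.0082) turned sign, all as log2 fold changes. With no filter on low counts 390 genes were called higher and 607 lower, 1 member lower (TNFRSF12A, -0.21), TNFSF10 higher (0.23) and 9 pathway genes higher. With a mean CPM of at least 5, at which TNFRSF9 was not tested, 5 genes were lower and 1 member higher, and RELT had 0.00041. DESeq2 called 46 genes lower, called TNFSF10 (0.23) and did not call TNFRSF9 (0.77). Limma on log2(FPKM + 1) and on log2(FPKM + 0.1) called 41 genes higher, 0 of the 9 members tested (TNFRSF9 fell under the filter) and 3 pathway genes; TNFSF15 (0.24 and 0.51) was not called, and TNFRSF10A (0.0062 and 0.0067), CD40 (0.027 and 0.030), RELT (0.025 and 0.034) and BIRC2 (0.0085 and 0.0087) turned. Limma with no filter called 13 genes higher, 5 lower, 0 members and 0 pathway genes, with TNFSF15 at 0.24, TNFRSF9 at 0.19, TNFRSF10A at 0.0062, CD40 at 0.027, RELT at 0.025 and BIRC2 at 0.0085. Adding 1 to FPKM shrinks the log2 values of scarce genes such as TNFSF15 and TNFRSF9 by design. After the gene length correction 27 genes were lower, TNFSF10 was called (0.25), and LTBR (-0.023), CD40 (0.030), ADAM10 (-0.0098) and ADAM17 (-0.026) turned.

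With the replicate number as a block 1753 genes were called higher and 2146 lower, 5 members higher and 1 lower, and 22 pathway genes higher and 4 lower. The block called TNFSF10 (0.24), TNFRSF1B (0.22), TNFRSF10B (0.082) and TNFRSF12A (-0.21), and ICAM1 (0.28) was among the 22 pathway genes. With block and length correction together the counts were 1100 and 2265 for all genes, 4 and 1 for members and 17 and 3 for pathway genes, with TNFSF10 at 0.25, TNFRSF1B at 0.22, TNFRSF12A at -0.17, LTBR at -0.021, CD40 at 0.031, ADAM10 at -0.0095 and ADAM17 at -0.025. The labels do not say whether samples with the same number were handled together. Their deviations from the group mean correlated at 0.0839, 0.230 and 0.171 for replicates 1, 2 and 3. Between unlike numbers the values ran from -0.165 to -5.5e-05, so every sample correlated best with its own number. The main fit kept group as its only term, so the calls in the Results, and the genes said there not to pass, hold for samples taken as unpaired. Pairing was not tested further. The share of calls that were higher was 84.0%, and 39.1% with no filter, 65.2% with DESeq2, 73.3% with the length correction, 72.2% with limma and no filter, 45.0% with the block and 32.7% with both.

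Leaving out 1 library gave 24 to 551 genes higher and 3 to 852 lower, 0 to 3 members higher and 0 to 1 lower, and 0 to 8 pathway genes higher. In log2 fold change the ranges were 0.49 to 0.59 for TNFSF15, 0.21 to 0.28 for TNFSF10, 0.70 to 0.84 for TNFRSF9, -0.28 to -0.14 for TNFRSF12A, 0.038 to 0.11 for TNFRSF1A, 0.14 to 0.32 for TNFRSF1B, 0.066 to 0.098 for TNFRSF10B, -0.063 to 0.0035 for TNFRSF10A, -0.21 to 0.0048 for TNFRSF11B and -0.010 to 0.050 for TNFRSF21. They were -0.045 to 0.028 for CD40, -0.036 to 0.047 for RELT, -0.021 to 0.059 for LTBR, -0.091 to 0.30 for LTB, -0.19 to 0.0098 for TNFSF12 and -0.060 to 0.15 for TNFSF13B. Without SRPK2 replicate 2, 39.3% of calls were higher. The cause of these shifts was not tested. TNFRSF9, TNFRSF11B and TNFSF15 rest on at most 284 reads per library, which limits their precision, and replicates with no separate source beyond the label measure only the spread between these samples.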
